A study of Mus musculus with 16 samples.

Results

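The Reg family lectins are small secreted C-type lectin proteins of the gut and pancreas. The members were taken by name, without regard to their values, as Reg1, Reg3a, Reg3b, Reg3g and Reg4, which are 5 of the 55414 genes in the deposited counts table. RNA was sequenced from purified Paneth cells (PCs) of the mouse small intestine, the secretory cells at the base of the crypts that release antimicrobial proteins. All mice were C57BL/6J per the methods of the study, and their age and sex are not given for these samples. Each mouse was injected first with PBS, the vehicle, or with DEX, and 1 h later with PBS or tumour necrosis factor (TNF), and cells were collected 3 h after the second injection. There were thus 2 groups without DEX, PBS+PBS and PBS+TNF, and 2 with it, DEX+PBS and DEX+TNF. Each held 4 libraries, 16 in all. DEX is the usual abbreviation of the glucocorticoid dexamethasone, which the sources used here do not spell out. Per the study, samples came from individual mice; the labels themselves name no animals.

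Reg3g and Reg3b are bactericidal lectins that intestinal epithelial cells secrete into the lumen. Reg3g binds the peptidoglycan of Gram-positive bacteria and keeps bacteria away from the mucosal surface. Transcription of both genes is known to need MyD88 signalling, from bacterial products, and IL-22, which acts through STAT3. Reg4 is a secreted lectin of the deep secretory cells of the crypt. Reg1 and Reg3a are best known from the exocrine pancreas, where Reg1 is also called lithostathine or pancreatic stone protein.

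Reg4 lies alone on chromosome 3 (GRCm39, 98129468 to 98144066, plus strand, ENSMUSG00000027876). The other members form a cluster on chromosome 6. In the order of their position these are Reg3b (78347640 to 78350455, plus strand, ENSMUSG00000071356), Reg3a (78357692 to 78360810, plus strand, ENSMUSG00000079516), Reg1 (78399694 to 78405828, plus strand, ENSMUSG00000059654) and Reg3g (78443246 to 78445859, minus strand, ENSMUSG00000030017). All are protein-coding, with 6 exons in the Ensembl canonical transcript and 157 codons in Reg4, 165 in Reg1, 174 in Reg3g and 175 in both Reg3a and Reg3b. No other annotated gene overlaps a member. The coding sequences of Reg3b and Reg3g were 76.4% identical, the highest value of the 10 pairs. Reg3a was 75.3% identical to Reg3b and 73.2% to Reg3g, and the other pairs lay between 59.7% and 65.2%. No pair shared a 50-base stretch of transcript, and only Reg3b and Reg3g shared 30-base stretches, 6 in number.

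The DNA before the start sites of the 3 abundant members is shown. Of these, Reg3g and Reg3b were close in pattern between libraries, and Reg4 differed from both. The window is the 250 bases upstream of the canonical start, read from the GRCm39 genome on the strand of the gene, and bases that belong to an annotated exon of the same gene are not printed. Motifs were searched in the whole window on both strands: TATAAA, TTCNNNGAA (the core of a STAT site), the NF-kB consensus and ACANNNTGT (the core of a glucocorticoid receptor site). Capitals mark the matches. The Reg3g stretch is chr6:78445860-78446106, minus strand, and ends 4 bases before the start. The Reg3b stretches are chr6:78347594-78347639 and chr6:78347690-78347843, plus strand, with an alternative exon between them. The Reg4 stretch is chr3:98129218-98129467, plus strand.
Reg3g: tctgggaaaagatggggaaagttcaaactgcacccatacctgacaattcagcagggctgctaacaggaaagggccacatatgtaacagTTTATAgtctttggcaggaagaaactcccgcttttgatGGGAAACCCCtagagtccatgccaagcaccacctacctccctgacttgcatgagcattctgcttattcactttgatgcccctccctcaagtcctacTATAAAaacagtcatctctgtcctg
Reg3b upstream of the alternative exon: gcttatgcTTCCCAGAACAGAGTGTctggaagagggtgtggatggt
Reg3b next to the canonical start: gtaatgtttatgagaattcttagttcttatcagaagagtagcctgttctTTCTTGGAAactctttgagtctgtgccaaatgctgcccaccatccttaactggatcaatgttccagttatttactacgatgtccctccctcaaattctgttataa
Reg4: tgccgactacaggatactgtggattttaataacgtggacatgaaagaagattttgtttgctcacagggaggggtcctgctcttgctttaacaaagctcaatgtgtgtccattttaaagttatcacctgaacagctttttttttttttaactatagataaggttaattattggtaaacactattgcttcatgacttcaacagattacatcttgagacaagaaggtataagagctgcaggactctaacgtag

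In the Reg3g stretch, TATAAA stood at -28 on the strand of the gene and at -162 on the other strand, and an NF-kB consensus match ran from -124 to -115. The Reg3b stretches held TTCNNNGAA at -242 and at -105, and ACANNNTGT at -234, which shares 1 base with the first of these. Reg4 had no match to any of these motifs, nor had Reg3a, and Reg1 had TATAAA at -30, in bases that are exon in a longer annotated transcript. Of 21627 protein-coding promoter windows of the same length, 11.9% held TATAAA, 7.73% TTCNNNGAA, 7.61% the NF-kB consensus and 5.22% ACANNNTGT. A match is a string of letters and does not show that a factor was bound.

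The libraries held between 7286307 and 15832111 counts. Levels (CPM, counts per 1000000) are given after scaling by trimmed mean of M-values (TMM) factors, which ran from 0.418 to 1.502 and were lowest in PBS+TNF 1 and PBS+PBS 4. The defining PC genes were abundant in every library. The summed level of the 8 Paneth markers was lowest in DEX+TNF 4, at 120900 CPM, and highest in PBS+TNF 1, at 492000 CPM. Nfkbia, an NF-kB target, had 277 to 337 CPM in PBS+TNF, 330 and 382 CPM in DEX+TNF 1 and 2, and only 28.3 and 41.0 CPM in DEX+TNF 3 and 4, near the 15.6 to 27.3 CPM of the libraries without TNF. The results of the tested members in the DEX+TNF group are therefore given with and without DEX+TNF 3 and 4. DEX+TNF 4 further stood apart in markers of other cell types: its enterocyte sum was 688 CPM against 90.0 to 427 in the other libraries, its tuft cell sum 651 CPM against at most 172, and its stem cell sum 1219 CPM against at most 826. Its sum of cycling cell markers was the highest as well, at 132.6 CPM against at most 110.1. Of that stem cell sum 1120 CPM were Olfm4 alone, while Lgr5 had 27.7 CPM there against 45.9 in PBS+PBS 1, and Smoc2 65.2 CPM against 91.6 in PBS+PBS 3.

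Reg4 and Reg3g were among the most counted genes of these cells, and most counts of the family came from Reg4. All members together took 0.855% ± 0.253 of the counts in PBS+PBS, 1.22% ± 0.317 in PBS+TNF, 0.950% ± 0.311 in DEX+PBS and 0.605% ± 0.189 in DEX+TNF (SD, n = 4). Reg4 made up 55.8% to 97.6% of the family counts, and it was between the 10th and the 18th most counted gene of each library. Reg3g was between the 20th and the 137th, and Reg3b between the 123rd and the 3407th. Per kilobase of merged exon length, the levels in PBS+PBS were 7519 ± 5305 CPM for Reg4, 487.9 ± 36.0 for Reg3g and 80.4 ± 28.1 for Reg3b (SD, n = 4). With the length of the canonical transcript alone these were 8655 ± 6108, 1350 ± 99.7 and 146.3 ± 51.2. The order Reg4, Reg3g, Reg3b and then Reg1 and Reg3a held in 16 of 16 libraries with either length. The ratio of Reg4 to Reg3g per kilobase ran from 2.47 to 81.7 with merged exons and from 1.03 to 34.0 with canonical transcripts, so the 2 genes were nearly level per length in the lowest library. The ratio of Reg3g to Reg3b was steadier, from 2.93 to 13.2 with merged exons.

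Reg1 and Reg3a were close to absent. Reg1 had 154 counts in all 16 libraries, of which 90 were in DEX+TNF 4, and Reg3a had 56, of which 17 were in that library. The further lectins Reg2 and Reg3d had 0 counts and 1 count in all. A count of 0 allows up to 3 counts, or 0.149 to 0.578 CPM depending on the library, by counting error alone.

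**Figure D1:**
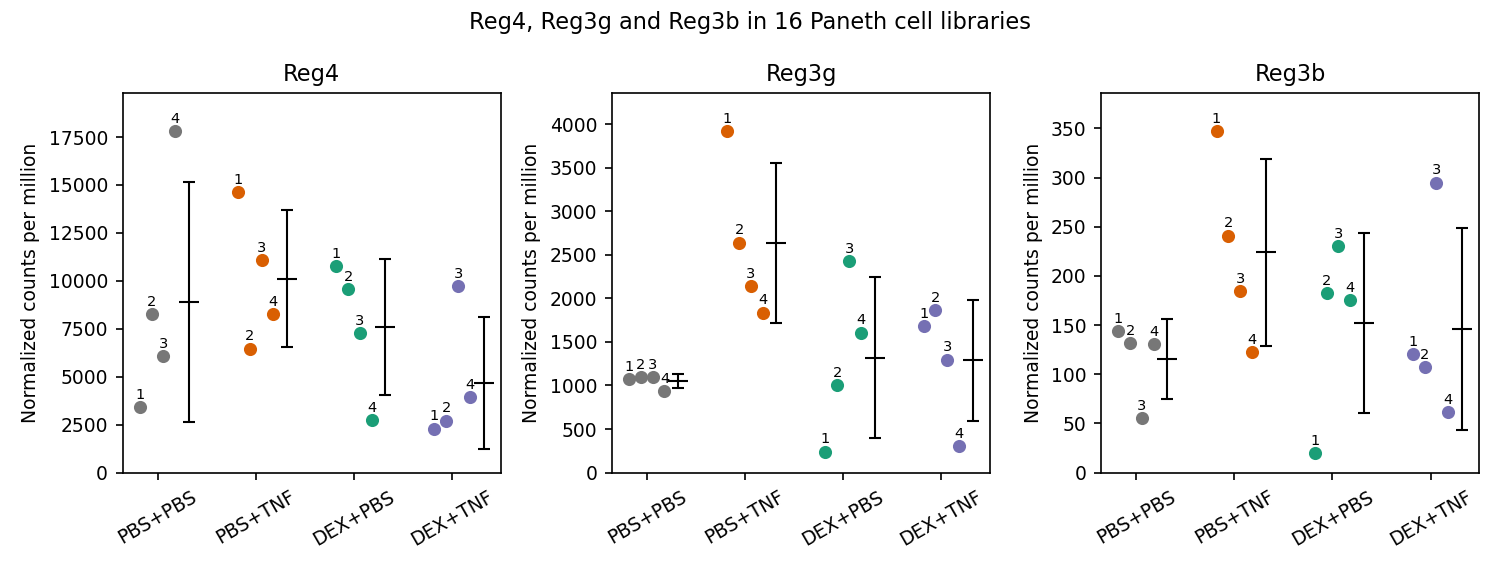
Normalized level (CPM) of Reg4, Reg3g and Reg3b in the 16 libraries, 1 panel per gene, with points numbered by replicate and the bar giving the group mean and SD (n = 4). The 4 PBS+TNF libraries of Reg3g, at 1835 to 3924 CPM, lie above the 4 PBS+PBS libraries, at 935 to 1098, while every other pair of groups that differs in 1 injection overlaps.

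The first comparison asked how TNF alone acts on the family. Reg3g was the only member whose groups did not overlap. Its level was 1072, 1096, 1098 and 935 CPM in PBS+PBS 1 to 4, against 3924, 2639, 2144 and 1835 CPM in PBS+TNF 1 to 4. All 4 TNF libraries lay above all 4 control libraries. The group means were 1050 ± 77.6 and 2636 ± 921 CPM (SD, n = 4), for a fitted log2 fold change of 1.33 (SE 0.56, 95% interval 0.14 to 2.51), a fold of 2.51. It did not pass the test at a threshold of 0.05 (edgeR adjusted p = 0.138, DESeq2 adjusted p = 0.0554). The close agreement of the control libraries depended on the scaling: in plain CPM of the library totals they ran from 470 to 1439, and the TNF libraries from 1638 to 3310, still without overlap. Among all 11809 tested genes, 19.5% had no overlap in this comparison, so 1 of the 4 tested members is near that share.

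Reg3b leaned the same way with more overlap. Its level was 143.9, 131.5, 55.5 and 130.8 CPM in PBS+PBS 1 to 4 and 347.3, 240.8, 184.7 and 122.6 CPM in PBS+TNF 1 to 4. All TNF libraries but PBS+TNF 4 lay above all controls. Which library overlapped depended on the scaling. In plain CPM PBS+TNF 4 had 176.9, above all controls, and PBS+TNF 1 had 145.0, below the 149.8 of PBS+PBS 1. The log2 fold change was 0.96 (SE 0.58, 95% interval -0.26 to 2.17, edgeR adjusted p = 0.320).

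Reg4, the most abundant member, varied about as much within the groups as between them. PBS+PBS 1 to 4 had 3413, 8244, 6078 and 17820 CPM, and PBS+TNF 1 to 4 had 14640, 6456, 11070 and 8261 CPM. The highest library of all was a control, PBS+PBS 4, and the groups overlapped widely. That top place depended on the scaling: in plain CPM of the library totals PBS+PBS 4 had 8959. The controls then ran from 3552 to 9074 and the TNF libraries from 6113 to 11920, still with overlap. The log2 fold change was 0.19 (SE 0.57, 95% interval -1.02 to 1.39, edgeR adjusted p = 0.892).

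Reg1 had 9, 1, 2 and 5 counts in PBS+PBS 1 to 4 and 0, 1, 0 and 4 in PBS+TNF 1 to 4. Its fitted log2 fold change was -2.03 (edgeR adjusted p = 0.402, SE 1.42), and at these counts the fitted value depends on the prior count of the model. Reg3a, with 0, 9, 1 and 2 against 3, 0, 3 and 3 counts, did not pass the filter on low counts. In a fit without that filter its log2 fold change was -0.11 (edgeR adjusted p = 1, SE 1.23).

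Of the 4 tested members, edgeR called 0 in PBS+TNF versus PBS+PBS, against 12.5% of all tested genes (1476 of 11809). At an unadjusted p under 0.05, 1 member passed (Reg3g), and DESeq2 called 0.

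Genes of the pathways known to drive Reg3 transcription were examined next, together with some genes beside them. The list of 30 held receptors and signal transducers of IL-22, IL-6, IL-17 and MyD88. It also held the receptor subunits Osmr and Lifr, Nod2 and Ripk2, and the NF-kB subunits Nfkb1 and Rela. Of the list, 27 genes were tested. Among those tested, 11 rose and 1 fell, where 12.5% of all tested genes were called. The median log2 fold change of the list was 0.61, against -0.03 over all genes. Those that rose included Osmr, Nod2, Ripk2, Nfkb1 and Rela, so they do not all stand for the named pathways. Osmr, the oncostatin M receptor subunit, rose by a log2 fold change of 7.16 (edgeR adjusted p = 0.000976, SE 1.08), and Socs3, the feedback inhibitor of STAT3 signalling, by 4.36 (edgeR adjusted p = 0.000663, SE 0.61). Nod2, the sensor of bacterial muramyl dipeptide, rose by 4.97 (edgeR adjusted p = 0.00527) and its kinase Ripk2 by 4.28 (edgeR adjusted p = 0.00215). The shared adaptor Myd88 rose by 2.00 (edgeR adjusted p = 0.00117) and Stat3 by 1.42 (edgeR adjusted p = 0.0422). Osmr had only 0.103 CPM on average in PBS+PBS, Nod2 0.295 and Nos2, below, 0.499, and fitted changes from such low levels depend on the prior count. The gene that fell was Il6ra, the IL-6 receptor subunit, with a log2 fold change of -2.69 (edgeR adjusted p = 0.0043). Il22ra1, the epithelial IL-22 receptor subunit, had 34.6 ± 13.4 CPM in PBS+PBS and 35.7 ± 18.3 CPM in PBS+TNF (SD, n = 4), with a log2 fold change of 0.05 (edgeR adjusted p = 0.961, SE 0.41). Myd88, Stat3, Il6ra and Il22ra1 were picked from the list after their values had been seen.

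Among 31 other secreted antimicrobial and lectin genes and their oxidant enzymes, 19 were tested, 3 rose and 0 fell, with a median log2 fold change of 0.44 against -0.03 over all genes. A share of 3 in 19 is near the 12.5% of all tested genes called. The 3 that rose belong to oxidant production and are not lectins: Nos2, the inducible nitric oxide synthase, by 8.93, Duoxa2, the maturation factor of the dual oxidase, by 5.22, and Duox2, the oxidase itself, by 3.73 (edgeR adjusted p = 0.000976, 0.00351 and 0.00427).

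**Figure D2:**
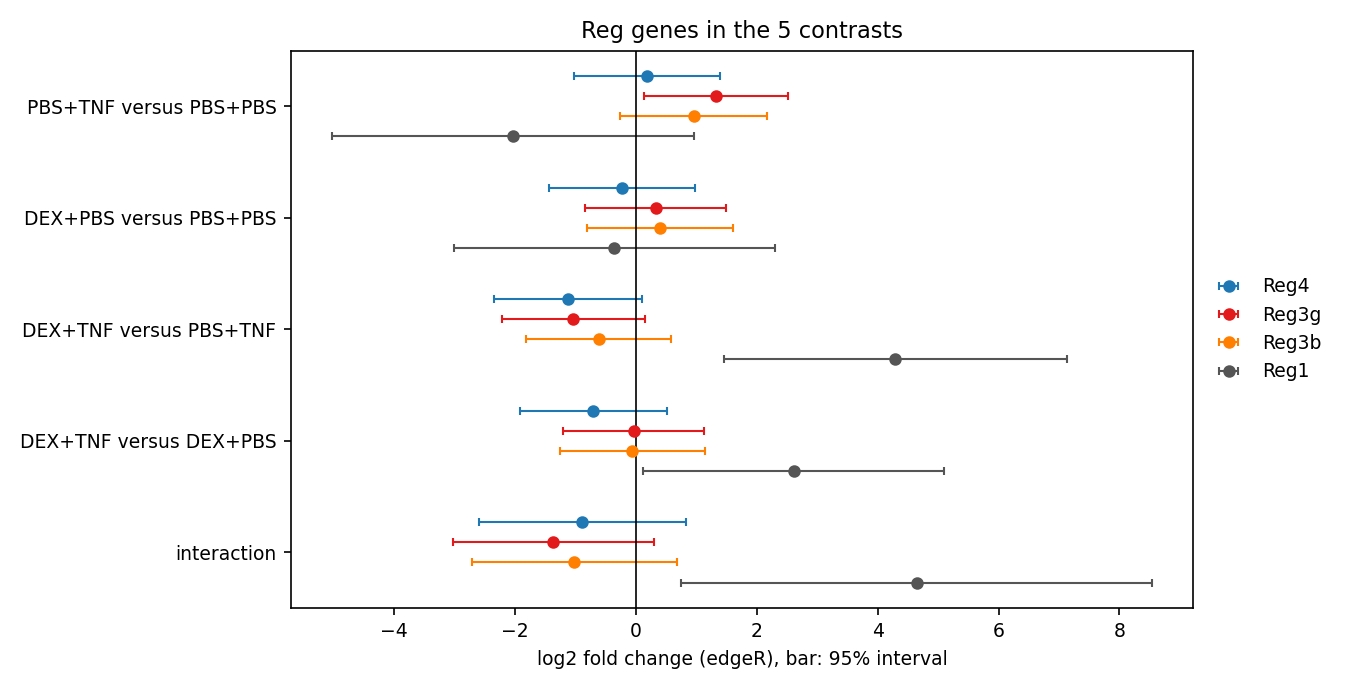
Fitted log2 fold changes of the 4 tested Reg genes in the 5 contrasts, with bars for the 95% interval (edgeR, 16 libraries); the interaction is the difference between the TNF effects with and without DEX. The intervals of Reg3b and Reg4 cover 0 in all 5 contrasts, that of Reg3g lies above 0 only in PBS+TNF versus PBS+PBS, and those of Reg1 lie above 0 in the contrasts that hold DEX+TNF.

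The second comparison asked what DEX did without TNF. Reg3g had 239.9, 1005, 2429 and 1605 CPM in DEX+PBS 1 to 4, with values both below and above the narrow PBS+PBS range. Its log2 fold change was 0.33 (SE 0.55, 95% interval -0.84 to 1.498). Reg3b had 19.7, 182.3, 230.5 and 175.4 CPM, with a log2 fold change of 0.40 (SE 0.57, 95% interval -0.81 to 1.60). DEX+PBS 1 held the lowest value of both genes among all 16 libraries, and it was also the shallowest library, with 1977 and 162 counts of Reg3g and Reg3b. The other 3 DEX+PBS libraries had more Reg3b than any control.

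In the same 4 libraries Reg4 had 10760, 9556, 7269 and 2735 CPM, all but the last within the control range. Its log2 fold change was -0.23 (SE 0.57, 95% interval -1.44 to 0.98). With plain library totals the sign turned, to 0.11. The place against the controls also depended on the scaling. In plain CPM DEX+PBS 1 to 4 had 12170, 10540, 5377 and 3837 of Reg4, and the controls ran from 3552 to 9074. DEX+PBS 1 and 2 then lay above every control, and DEX+PBS 3 and 4 within their range. Reg1 had 0, 0, 6 and 9 counts (log2 fold change -0.35, SE 1.26) and Reg3a 0, 6, 2 and 2. The adjusted p was 1 for each of the 4 tested members (edgeR). Of these members edgeR called 0, where the background was 0.00847% of all tested genes (1 gene). None passed at an unadjusted p under 0.05, DESeq2 called 0, and none had groups without overlap, against 1.88% of tested genes.

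The third comparison asked whether DEX given before TNF changed the level seen with TNF. Reg3g had 1684, 1865, 1297 and 305.2 CPM in DEX+TNF 1 to 4, a mean of 1288 ± 697 against 2636 ± 921 CPM in PBS+TNF (SD, n = 4). Only DEX+TNF 2, with 1865 CPM, reached into the PBS+TNF range, just above its lowest library at 1835. This depended on the scaling: in plain CPM DEX+TNF 1 and 2 had 1814 and 1903, both above the 1638 of PBS+TNF 1. The log2 fold change was -1.03 (SE 0.56, 95% interval -2.21 to 0.15, edgeR adjusted p = 0.497). Without DEX+TNF 3 and 4 it was -0.57 (edgeR adjusted p = 0.695).

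Reg4 showed a difference of similar size. DEX+TNF 1 to 4 had 2280, 2711, 9720 and 3947 CPM, of which 3 lay below every PBS+TNF library and DEX+TNF 3 lay among them. The log2 fold change was -1.12 (SE 0.58, 95% interval -2.34 to 0.11, edgeR adjusted p = 0.471). Without DEX+TNF 3 and 4 it was -2.01 (edgeR adjusted p = 0.411, SE 0.69). Reg3b had 120.6, 107.2, 294.8 and 61.3 CPM and overlapped widely. Its log2 fold change was -0.62 (edgeR adjusted p = 0.721, SE 0.57), and -0.97 (edgeR adjusted p = 0.590) without DEX+TNF 3 and 4.

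Reg1 was the member with the largest fitted change here. Its counts were 11, 0, 16 and 90 in DEX+TNF 1 to 4 against 0, 1, 0 and 4 in PBS+TNF 1 to 4, so the groups shared the value 0. The fitted log2 fold change was 4.29 (edgeR adjusted p = 0.187, SE 1.35, DESeq2 adjusted p = 0.0715). Reg3a had 2, 0, 6 and 17 counts in DEX+TNF 1 to 4, with a log2 fold change of 0.97 (SE 1.26) in the fit without the filter. For Reg1, the value without DEX+TNF 4 was 3.20 (edgeR adjusted p = 0.509), and without DEX+TNF 3 and 4 it was 2.31 (edgeR adjusted p = 0.586).

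Of the 4 tested members edgeR called 0 in DEX+TNF versus PBS+TNF, where the background was 0.339% of tested genes (40). At an unadjusted p under 0.05, 1 passed (Reg1), and DESeq2 called 0. None had groups without overlap, against 6.38% of tested genes.

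**Figure D3:**
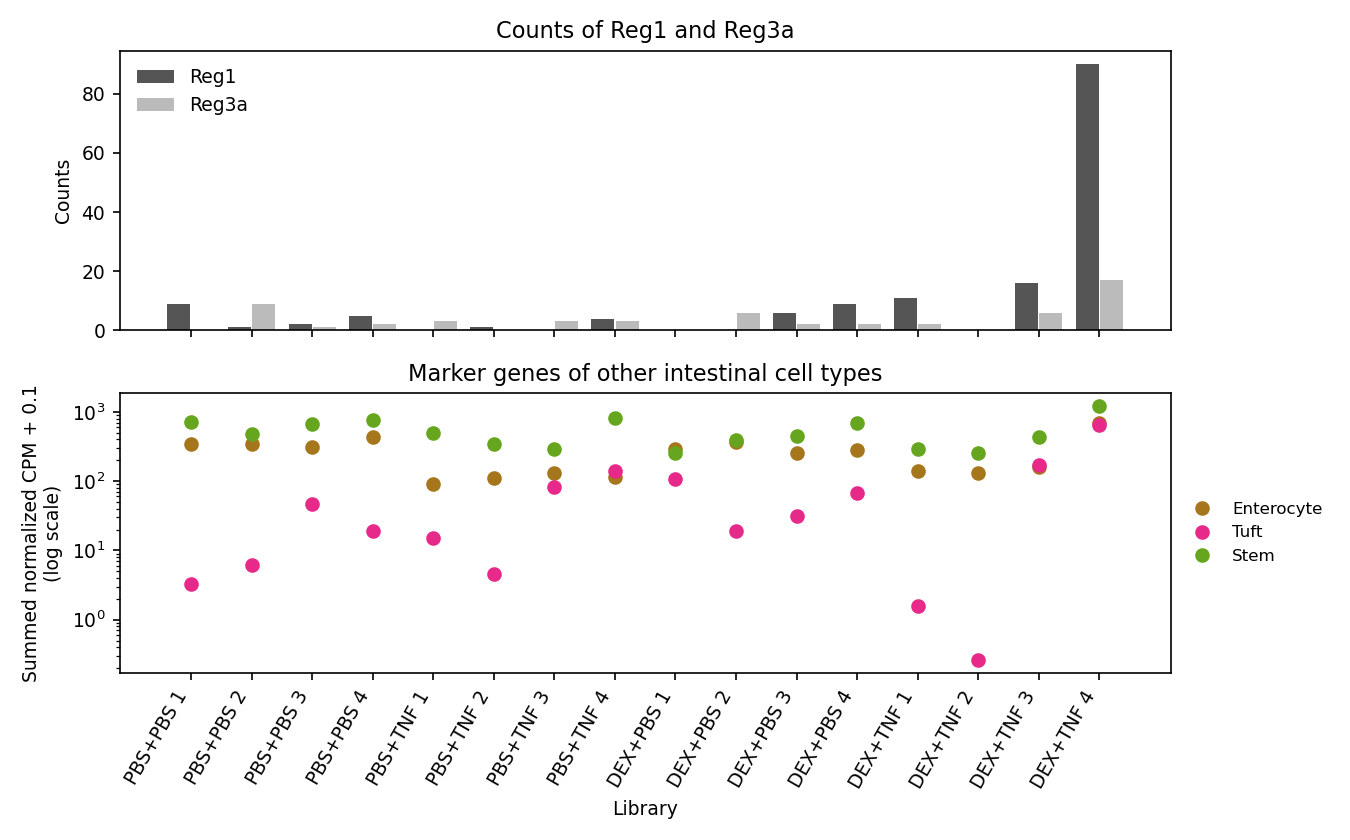
Counts of Reg1 and Reg3a (upper panel) and summed normalized CPM plus 0.1, on a log scale, of enterocyte, tuft and stem cell markers (lower panel) in each of the 16 libraries. DEX+TNF 4 has the most Reg1 (90) and Reg3a (17) counts and the highest sum of all 3 marker lists.

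The library with the most Reg1 and Reg3a, DEX+TNF 4, also had the highest sums of the enterocyte, tuft and stem cell markers, but the lowest goblet sum (7066 CPM) and an enteroendocrine sum of 22.6 CPM, inside the 11.6 to 58.4 CPM of the others. Of the single genes, 9 of 11 enterocyte, 6 of 6 tuft, 2 of 4 stem and 0 of 7 goblet markers were highest in that library. The summed level of 11 enterocyte markers was 309 to 427 CPM for PBS+PBS and 90.0 to 129 CPM for PBS+TNF. It was 252 to 371 CPM for DEX+PBS and 132 to 688 CPM for DEX+TNF. Much of that sum was Anpep alone, at 124 to 317, 18.7 to 85.1, 203 to 328 and 98.2 to 230 CPM in the same order. Fabp2 overlapped between PBS+PBS and PBS+TNF (8.70 to 141.9 against 7.24 to 54.3 CPM), as did Slc5a1 (6.60 to 40.3 against 14.3 to 34.4 CPM). The 6 tuft cell markers summed to 3.17 to 47.1, 4.40 to 140.7, 18.9 to 108.9 and 0.162 to 651 CPM in the same order. The 4 stem cell markers summed to 478 to 759, 291 to 826, 253 to 682 and 252 to 1219 CPM. Stromal markers stayed under 1 CPM in every library. The sum of the immune markers was highest in DEX+PBS 4, at 278 CPM. Of that sum 217.1 CPM were Cd74 alone, and nearly all the rest was Lyz2. The immune marker Ptprc had 0.4079 CPM there, and was highest in DEX+TNF 4, at 21.04 CPM. The part of cells of these other types in the Reg1 and Reg3a counts was not tested. The 12 pancreatic acinar markers summed to 2.29 to 12.7 CPM, most of it Cela1, and Prss2 and Cpa1 were at 0 in all libraries. In bulk RNA of this kind, fewer cells of a type and less RNA per cell cannot be told apart.

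The fourth comparison asked for the TNF effect after DEX. Reg3g had a log2 fold change of -0.04 (SE 0.55, 95% interval -1.20 to 1.13) and Reg3b one of -0.06 (SE 0.57, 95% interval -1.26 to 1.14), with edgeR adjusted p = 0.998 and 0.997. Without DEX+TNF 3 and 4, whose Nfkbia was near the level without TNF, the value of Reg3g turned to 0.43 (edgeR adjusted p = 0.682, SE 0.57) and that of Reg3b became -0.41 (edgeR adjusted p = 0.739). Reg4 had -0.70 (edgeR adjusted p = 0.769, SE 0.58), and -1.60 (edgeR adjusted p = 0.150, SE 0.68) without these libraries. Reg1 had 2.61 (edgeR adjusted p = 0.442, SE 1.18), and 0.63 without them. Of the 4 tested members edgeR called 0, where the background was 0.339% of tested genes (40). Without DEX+TNF 3 and 4 it still called 0 members, and 1286 genes. At an unadjusted p under 0.05, 1 passed (Reg1) with all libraries, DESeq2 called 0, and none had groups without overlap, against 4.68% of tested genes. Of the signalling list Socs3 and Osmr rose in this comparison, by 2.86 and 5.79 (edgeR adjusted p = 0.0486 and 0.0456), and of the antimicrobial list Nos2 rose by 5.53 (edgeR adjusted p = 0.0491). These 3 calls were lost with a replicate block, with only the groups compared in the fit, and without any single library other than DEX+TNF 3 or 4, since 0 genes of the whole table were then called. No gene of either list was called in DEX+PBS versus PBS+PBS, in DEX+TNF versus PBS+TNF or in the interaction.

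The interaction tests directly whether the TNF effect differed after DEX and after PBS. It was -1.36 on the log2 scale for Reg3g (SE 0.79, 95% interval -3.02 to 0.30), -1.01 for Reg3b (SE 0.81), -0.89 for Reg4 (SE 0.81) and 4.65 for Reg1 (SE 1.85). Without DEX+TNF 3 and 4 it was -0.90 for Reg3g, -1.37 for Reg3b, -1.79 for Reg4 and 2.66 for Reg1 (edgeR adjusted p = 0.897 for Reg4 and 0.972 for the others). With all libraries the edgeR adjusted p was 0.857 for Reg1 and 1 for the others. Of the 4 tested members edgeR called 0, as of all tested genes (0%). At an unadjusted p under 0.05, 1 passed (Reg1), and DESeq2 called 0.

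The members did not all vary together from library to library. Likeness was measured as the root mean square (RMS) difference of log2 CPM, centred on the mean of each gene over the 16 libraries, where 0 means the same pattern. It is a description, since genes of a library share its depth, its scaling and its mix of cells. Reg3b and Reg3g were close, with an RMS difference of 0.61, while their own spreads were 0.99 and 1.02. Of 7815 genes ranked, Reg3g was the 1st nearest to Reg3b, and Reg3b the 4th nearest to Reg3g. Both were high in PBS+TNF 1 and low in DEX+PBS 1. The high place of PBS+TNF 1 depended on the scaling. In plain CPM it had 1638 of Reg3g and 145.0 of Reg3b, the lowest of the PBS+TNF libraries for both. Reg3b and Reg3g parted in DEX+TNF 3, where Reg3b had the second highest of its 16 values while Reg3g lay near its mean.

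Reg4 had little in common with them, with RMS differences of 1.23 from Reg3b and 1.34 from Reg3g. The genes nearest to it were Defa-ps6 (RMS difference 0.33), Spink4 (0.34) and Ang4 (0.34). Spink4 is a secreted protease inhibitor that is also a goblet cell marker, and Ang4 is a ribonuclease of PC granules. Defa-ps6 is an alpha-defensin pseudogene. Per the study, the high similarity of alpha-defensin genes makes reads hard to assign. Counts of Defa-ps6 are uncertain too, as the handling of reads that match several genes is not known. The spread of Reg4 itself was 0.88. Ang4 had 90890 CPM in PBS+PBS 4 and 115800 in PBS+TNF 1, the libraries in which Reg4 was highest, and 8223 CPM in DEX+PBS 4, where Reg4 was low. The 7 goblet markers, Spink4 among them, summed to 40340 CPM in PBS+PBS 4 and 39860 in PBS+TNF 1, against 7066 to 21300 CPM in the others. Of these sums 30000 and 31980 CPM were Spink4 alone. Tff3 and Agr2 were also highest in these 2 libraries, and Clca1 in PBS+PBS 4 only. Muc2 had 812 and 1007 CPM there, against 6459 in PBS+TNF 2. Fcgbp had 190 and 24.7 CPM, against 1655 in DEX+PBS 4, where Zg16 was highest as well. PBS+PBS 4 and PBS+TNF 1 are the 2 libraries with the lowest scaling factors, and the part of that in the likeness was not tested.

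**Figure D4:**
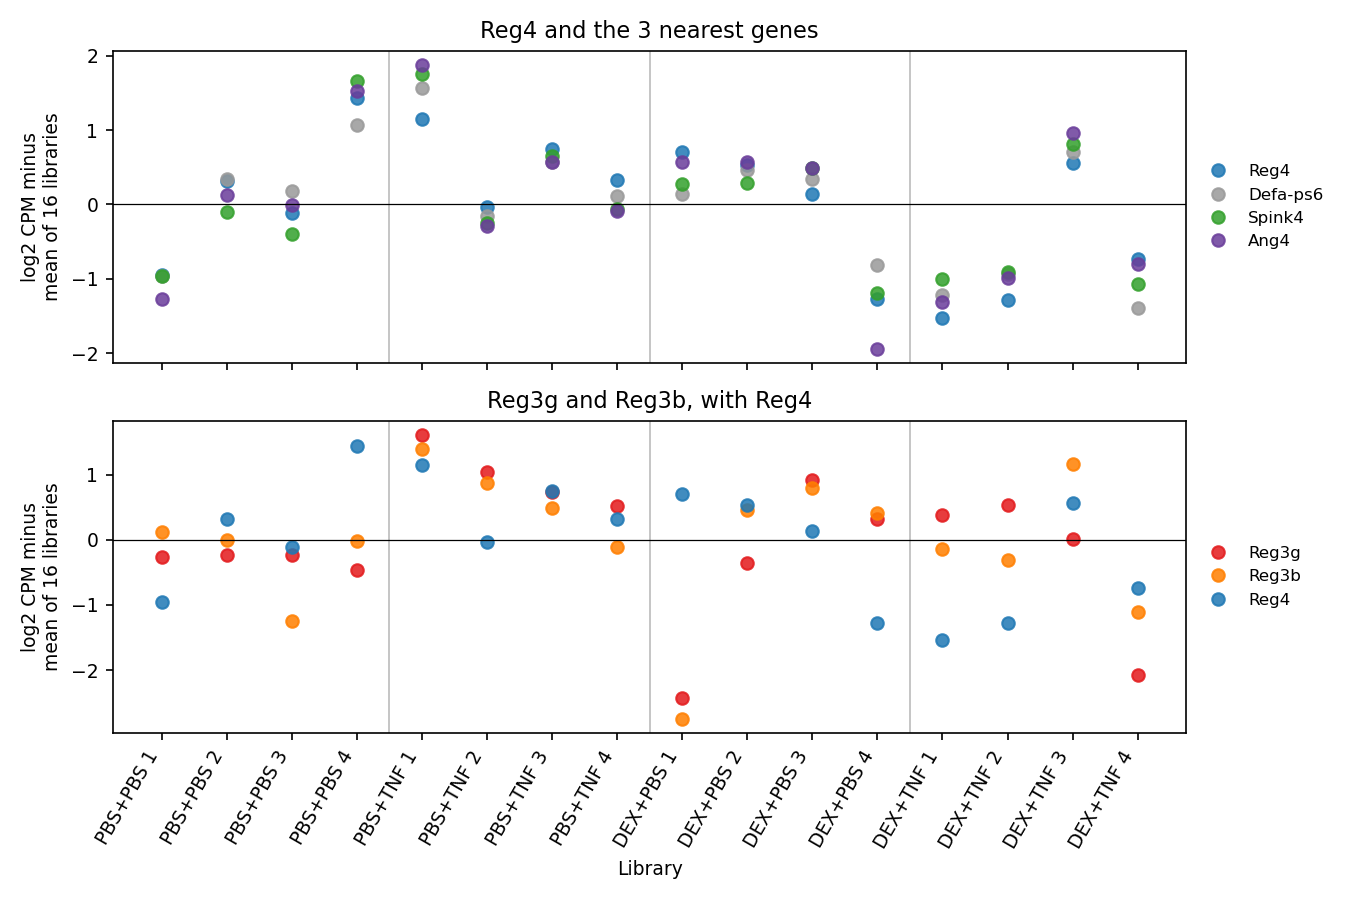
Centred log2 CPM (each gene minus its mean over 16 libraries) by library, for Reg4 with its 3 nearest genes (upper panel) and for Reg3g and Reg3b with Reg4 (lower panel). Defa-ps6, Spink4 and Ang4 lie close to Reg4 in most libraries, with RMS differences of 0.33 to 0.34 from Reg4, while Reg3g and Reg3b lie far below Reg4 in DEX+PBS 1.

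The genes nearest to Reg3g were Prune2 (RMS difference 0.55), Tnfsf15, a cytokine of the TNF superfamily (0.58), and Ffar4, a receptor for long-chain fatty acids (0.61). Those nearest to Reg3b outside the family were Urah (0.66), Fgl2 (0.67) and Xkr9 (0.68). All 6 were of low abundance, with a mean of 5.16 to 17.4 CPM. For Reg1 the nearest were Sdc4 (1.04), Mttp, which loads lipid onto lipoproteins (1.04), and Camk2b (1.05), and with a spread of 1.49 for Reg1 itself these were distant matches.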

How the data were processed

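Total RNA of 16 samples of purified PCs, extracted with the Aurum Total RNA Mini kit, was sequenced from TruSeq Stranded mRNA libraries. The authors aligned the reads with STAR (2.7.10a in the submitters' processing notes) to GRCm39 with the GENCODE M30 annotation. The deposited values are raw read counts per Ensembl gene. The counting program, its use of strand and its handling of reads that match several genes are not given in the sources used here. Groups and replicate numbers came from the labels.

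Gene names, exon lengths and start sites came from GENCODE M39 on the same assembly, which held 54749 of 55414 identifiers, the 5 members included. Genes were filtered with filterByExpr (11809 kept, 4 of 5 members), scaled by TMM and fitted with a mean per group over all 16 libraries in edgeR 4.0.16 (quasi-likelihood, robust, R 4.3.3). The 5 contrasts were tested two-sided with Benjamini-Hochberg adjustment over all tested genes, and calls were made at an adjusted p under 0.05. The SE is the log2 fold change divided by the square root of F. Depth was 7286307 to 15832111 counts per library; floors cover counting error only, as the reads carry no molecular identifiers. Within-group library pairs all differed by more than sampling noise (chi-square per degree of freedom 8.78 to 344). DESeq2 1.42.0, other scalings and filters, a replicate block and left-out libraries were the alternatives.

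The genes named beside the members were the 3 nearest in pattern to each tested member with 5 CPM or more on average, and from the 2 gene lists the called genes with the largest changes; further ones are marked. The members, lists and tests were chosen with earlier results of these data known.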

Additional observations from a re-analysis of the deposited data

Results flagged for a closer look

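The lowest or highest value of each member in each group of 4 libraries was compared with its nearest neighbour by Dixon's criterion (gap over range, limit for a 95% level), for 20 combinations of member and group. Chance flags about 1 in 20 groups, and 2 values passed, both low values in PBS+PBS. Reg3b had 55.5 CPM in PBS+PBS 3, against 130.8 to 143.9 CPM in the other controls. Reg3g had 935 CPM in PBS+PBS 4, against 1072 to 1098 CPM; that library has the second lowest scaling factor (0.503), and the gap is small beside the difference from the PBS+TNF libraries. In PBS+PBS 3, Reg3g was at 1098 CPM, so the low Reg3b value was not shared by its nearest family member.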

How the results depend on the processing

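Each result was recomputed under 28 alternatives (27 for the interaction). Of 547 member tests, 528 kept their direction and side of the threshold, 18 turned direction and 1 newly passed it. That one is Reg3g in PBS+TNF versus PBS+PBS when only the libraries of the groups compared were fitted (log2 fold change 1.33, SE 0.36, edgeR adjusted p = 0.0338), which makes 1 member called; over all its alternatives the adjusted p of Reg3g ran from 0.0338 to 0.329. Reg1 gave no value where a filter removed it. Turned values lay within 0.44 of 0. Reg3g in DEX+TNF versus DEX+PBS became 0.43 without DEX+TNF 3 and 4, and Reg4 in DEX+PBS versus PBS+PBS became 0.11 with library totals in place of TMM, an alternative chosen after seeing the data. Leaving out single libraries gave ranges of -0.084 to 0.75 for Reg4 in PBS+TNF versus PBS+PBS. In DEX+PBS versus PBS+PBS they were -1.01 to 0.31 for Reg1, -0.50 to 0.35 for Reg4 and -0.14 to 0.68 for Reg3g. In DEX+TNF versus DEX+PBS they were -0.66 to 0.21 for Reg3b and -0.38 to 0.44 for Reg3g. Without a turn of sign, single libraries moved Reg1 from -3.37 to -1.38 in PBS+TNF versus PBS+PBS and Reg3b from 0.13 to 0.77 in DEX+PBS versus PBS+PBS. In DEX+TNF versus PBS+TNF Reg3b ran from -1.21 to -0.31 and Reg4 from -1.76 to -0.86, in DEX+TNF versus DEX+PBS Reg4 from -1.35 to -0.48 and Reg1 from 1.53 to 3.26, and in the interaction Reg3g from -1.71 to -0.89, Reg3b from -1.61 to -0.71 and Reg4 from -1.53 to -0.62. With canonical transcript length, also chosen after seeing the data, the mean level over 16 libraries was 202 CPM per kilobase for Reg3b (111 with merged exons) and 2022 for Reg3g (731 with merged exons); the order of the members was kept. Nothing in the labels pairs libraries by number, and not every same-numbered pair correlated: r ran from -0.365 to 0.504 (median 0.115, against -0.0615 for other pairs), and 7 of 16 libraries correlated best with their own number, so the number was not used as a pairing. With a replicate block Reg3g in PBS+TNF versus PBS+PBS was 1.32 (edgeR adjusted p = 0.172) and 0 members were called; 1482 genes were called in PBS+TNF versus PBS+PBS, 16 in DEX+TNF versus PBS+TNF and 0 in DEX+TNF versus DEX+PBS. Over all alternatives the count of called genes ran from 228 to 2166 in PBS+TNF versus PBS+PBS (1476 as reported), 0 to 6 in DEX+PBS versus PBS+PBS (1), 0 to 243 in DEX+TNF versus PBS+TNF (40), 0 to 1286 in DEX+TNF versus DEX+PBS (40) and 0 to 8 in the interaction (0). The cause of these moves was not tested. Depth limits Reg1 and Reg3a, with 154 and 56 counts in all, and for the other members the spread between libraries, not depth, sets the width of the intervals.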
